A study of Mus musculus with 6 samples.

Results

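The mitochondrial protein import machinery was examined as a set of 30 genes among the 17193 genes listed in each library. A gene belonged to the set when its Ensembl identifier mapped to a protein-coding mouse gene whose symbol begins with Timm or Tomm, or to *Pam16*, *Grpel1*, *Chchd4*, *Samm50*, *Mtx1* or *Mtx2*. The rule uses gene names and no measured value, although it was set with earlier results of these data known. The annotation holds 33 genes matching these names, and the protein-coding *Timm8a2* and *Tomm20l* and the antisense gene *Tomm6os* were not analysed here.

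Poly(A) RNA was sequenced from astrocytes of wild-type C57BL/6 mice aged 3 months, which had been sorted from brain tissue with beads against ACSA-2. Mice were Mock-treated or had received Quinpirole, an agonist of the dopamine receptor DRD2, with 3 libraries in each group. The comparison asks which transcripts differ in astrocytes after DRD2 activation. The dose, the duration and the number of mice behind each library are not given for these libraries in the sources used here, so the p-values measure only the spread between libraries, which may be technical. Expression is given as FPKM, the fragments mapped to a gene divided by transcript length and library depth, so that levels can be set beside each other between genes. Because the material is bulk RNA, a change in cell composition and a change in RNA per cell cannot be told apart.

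Nearly all mitochondrial proteins are encoded in the nucleus, made in the cytosol and brought in as unfolded precursors. Precursors enter through the TOM complex of the outer membrane and are then handed on. The SAM complex inserts β-barrel proteins, the disulfide relay and the small TIM chaperones serve the intermembrane space, TIM22 inserts carrier proteins, and TIM23 with its ATP-driven motor carries presequence proteins into the matrix. Astrocytes depend on this route for their respiratory enzymes and for the carriers that link glutamate uptake to mitochondrial metabolism.

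All 30 genes passed the filter for testing, a mean of at least 1 FPKM, as did 12255 of the 17193 genes in all. After Quinpirole, 8 of the 30 import genes were higher at an adjusted p under 0.05 (limma, Benjamini-Hochberg over all 12255 genes), namely *Pam16*, *Grpel1*, *Tomm6*, *Timm50*, *Samm50*, *Timm8a1*, *Timm17a* and *Tomm22*, and 0 were lower. This is 26.7% of the set, whereas 5.74% of all genes tested were called higher and 5.18% lower. At an unadjusted p under 0.05 there were 16 of the 30 import genes, all with a higher mean, beside 3839 of the 12255 genes in either direction. The 8 genes came from the outer membrane (*Tomm6*, *Tomm22* and *Samm50*), the intermembrane space (*Timm8a1*), the inner membrane translocase (*Timm50* and *Timm17a*) and the matrix motor (*Pam16* and *Grpel1*).

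The differences were small. The fold changes of the 8 genes lay between 0.18 and 0.36 on the scale of log2(FPKM + 1). The median over the 30 genes was 0.13, beside 0.02 over all genes tested. The mean after Quinpirole was higher for 27 of the 30 genes (90%), beside 53.8% of all genes. Every Quinpirole library lay above every Mock library for 17 of the 30 (56.7%), beside 20% of all genes. The reverse, every Quinpirole library below every Mock library, was seen for 16.9% of all genes and for 0 of the 30. With median ratio scaling 25 means were higher and 4 genes passed, and with quantile normalization 27 means were higher and 3 genes passed. Of all 12255 genes tested, 580 and 283, respectively, were then called higher. These scalings also moved the split of all calls, from 52.6% higher to 45.6% and 36.1% higher, respectively.

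**Figure D1:**
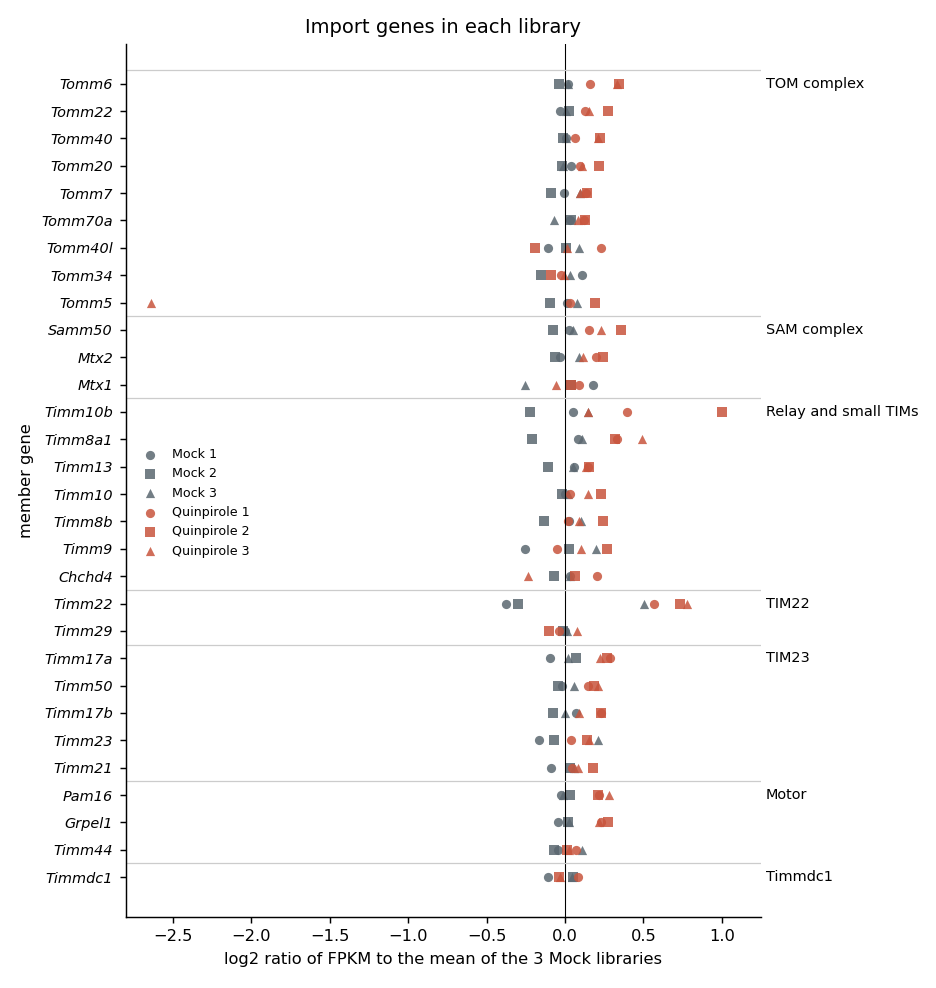
Log2 ratio of FPKM in each library to the mean of the 3 Mock libraries for the 30 import genes, grouped by complex; grey symbols are Mock libraries and red symbols Quinpirole libraries. Most red symbols lie to the right of 0, while *Tomm5* in Quinpirole 3 lies far to the left and *Timm22* in Mock 3 lies with the Quinpirole libraries.

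The following limits hold for every call below. The call count depended on single libraries, since 0 of the 30 genes passed when Mock 1, Mock 2, Quinpirole 1, Quinpirole 2 or Quinpirole 3 was left out (10 to 15 genes at an unadjusted p under 0.05), and 7 passed without Mock 3. Over all 12255 genes, 1339 were called with all 6 libraries, 1215 without Mock 3 and 3 to 210 without 1 of the others. At an unadjusted p under 0.05 these last fits had 2891 to 3580 genes. Fold changes were also related over all genes to exonic length, the merged length of all annotated exons of a gene. After a correction for this length 3 import genes passed, *Grpel1*, *Timm17a* and *Tomm70a*.

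**Figure D2:**
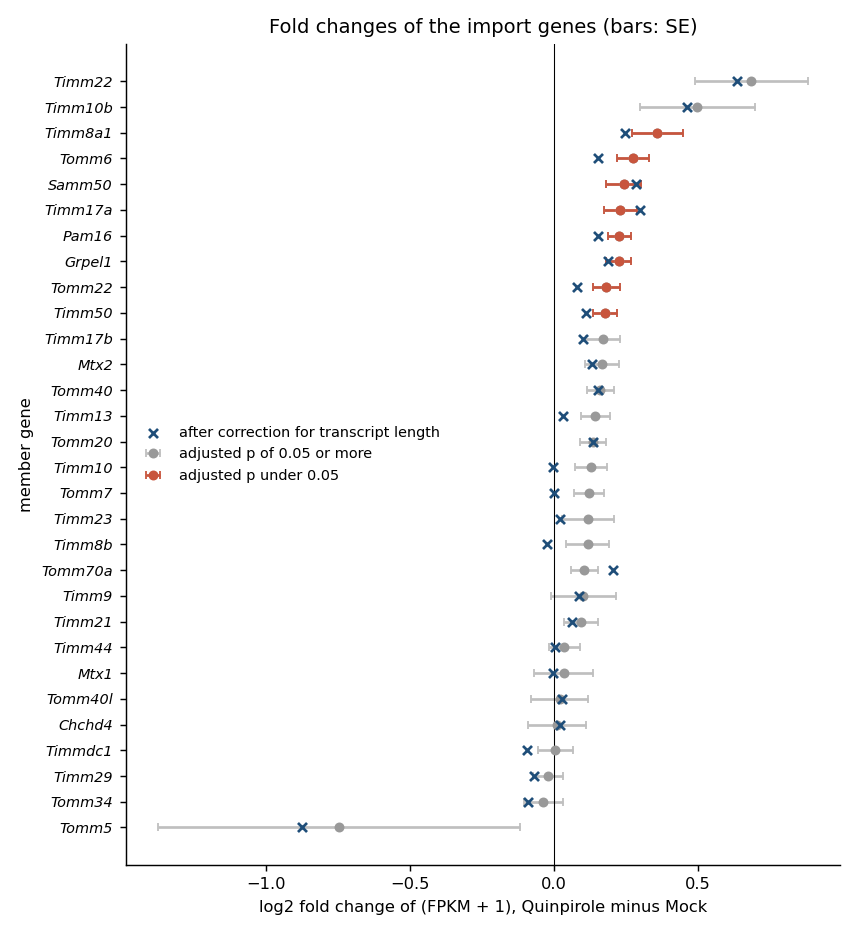
Log2 fold change of FPKM + 1 (Quinpirole minus Mock) for each import gene with its SE. Red marks an adjusted p under 0.05 by limma and grey an adjusted p of 0.05 or more. Crosses give the value after correction for exonic length, which the legend names transcript length. The 8 red genes lie between 0.18 and 0.36, and *Timm22*, *Timm10b* and *Tomm5* have the widest bars.

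The promoters of the called genes that held a match are shown because the called genes came from several compartments. RefSeq (GRCm38.p6) gave 29 promoters for 27 of the 30 genes, and the 250 bases before the start were searched on both strands for the letters CCGGAAG (ETS), GCGCANGCG (NRF1), AAGATGGC (YY1) and TGACNNNGC (the antioxidant response element, to which Nrf2 binds). The ETS letters were found in 12 of the 29 promoters (41.4%), beside 6.91% of 32851 promoters, and the NRF1 letters in 4 (13.8%), beside 5.16%. Among the 12 are 2 overlapping promoters of *Tomm34* that share an ETS match. The antioxidant letters were found in 2 of 29 (6.90%), those of *Mtx2* and *Tomm20*, beside 10.2%, and the YY1 letters in 0, beside 1.56%. Among the promoters of the 8 called genes, ETS letters were found in 2, *Grpel1* and *Tomm22*, NRF1 letters in 1, *Pam16*, and antioxidant letters in 0. The median GC content was 57.6% for the import promoters and 52.4% for all promoters, and the part of base composition in these shares was not tested. The promoters of these 3 genes and of *Timmdc1*, the gene with the most ETS matches, follow from 5′ to 3′ on the gene's strand and end at the base before the start, with the matches in capitals.
Pam16 (chr16:4624947-4625196, minus strand): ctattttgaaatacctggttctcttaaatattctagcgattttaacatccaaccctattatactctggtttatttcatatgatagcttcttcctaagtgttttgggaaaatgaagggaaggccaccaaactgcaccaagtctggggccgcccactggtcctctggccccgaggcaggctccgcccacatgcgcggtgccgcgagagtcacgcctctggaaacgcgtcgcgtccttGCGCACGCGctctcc
Grpel1 (chr5:36464935-36465184, plus strand): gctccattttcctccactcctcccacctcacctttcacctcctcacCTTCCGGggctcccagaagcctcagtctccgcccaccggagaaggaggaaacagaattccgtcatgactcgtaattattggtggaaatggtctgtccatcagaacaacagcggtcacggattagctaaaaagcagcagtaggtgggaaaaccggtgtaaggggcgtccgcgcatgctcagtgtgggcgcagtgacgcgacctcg
Tomm22 (chr15:79670618-79670867, plus strand): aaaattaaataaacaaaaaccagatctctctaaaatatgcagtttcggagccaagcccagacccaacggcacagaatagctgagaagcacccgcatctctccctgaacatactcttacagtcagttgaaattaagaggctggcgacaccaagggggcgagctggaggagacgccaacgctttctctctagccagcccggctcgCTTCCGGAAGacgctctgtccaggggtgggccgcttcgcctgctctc
Timmdc1 (chr16:38522664-38522913, minus strand): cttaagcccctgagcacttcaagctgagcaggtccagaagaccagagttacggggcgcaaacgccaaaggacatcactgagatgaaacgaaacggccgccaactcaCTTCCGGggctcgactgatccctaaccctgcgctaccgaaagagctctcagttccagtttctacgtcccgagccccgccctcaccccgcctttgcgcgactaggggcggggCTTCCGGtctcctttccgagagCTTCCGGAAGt

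In *Pam16* the NRF1 letters lie 15 to 7 bases before the start, and in *Grpel1* the ETS letters lie 204 to 198 bases before it. *Tomm22* holds ETS letters on both strands that overlap, together 47 to 38 bases before the start. *Timmdc1* holds 4 matches, of which 2 overlap next to the start, and its log2 fold change was 0.004. A match describes letters only. Matches were thus present both in called genes and in the gene whose fold change was nearest to 0.

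The import motor pulls presequence proteins into the matrix, and of its 3 genes in the set, *Pam16* and *Grpel1* were higher after Quinpirole. *Pam16* (chr16:4616464-4624988, minus strand, GRCm38) encodes a J-like protein that restrains the motor's J-protein. Its FPKM was 23.8, 24.8 and 24.0 in Mock 1 to 3 and 28.2, 28.0 and 29.4 in Quinpirole 1 to 3. The groups did not overlap, and the means were 24.2 ± 0.497 and 28.5 ± 0.771 FPKM (SD, n = 3 libraries each). The log2 fold change was 0.23 (SE 0.04), and the adjusted p of 0.025 by limma was the smallest in the set. The change was 0.15 after the length correction (adjusted p = 0.086).

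*Grpel1* (chr5:36464998-36474080, plus strand) encodes the nucleotide exchange factor of mitochondrial Hsp70. It had 13.3, 13.9 and 13.9 FPKM in the Mock libraries and 16.0, 16.5 and 15.9 FPKM in the Quinpirole libraries. The values within each group were close together and the groups lay apart. The log2 fold change was 0.22 (SE 0.04, adjusted p = 0.029 by limma), and 0.19 after the length correction (adjusted p = 0.047). *Timm44*, which tethers Hsp70 to the translocase, overlapped between the groups, with 20.2 to 22.8 FPKM in Mock and 21.3 to 22.2 FPKM in Quinpirole (log2 fold change 0.04, adjusted p = 0.68 by limma). Summed over the 3 genes, the motor had 57.6, 58.8 and 60.8 FPKM in the Mock libraries and 66.4, 65.9 and 66.9 FPKM in the Quinpirole libraries.

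The presequence translocase TIM23 receives precursors from the outer membrane and threads them through the inner membrane. Of its 5 genes, *Timm50* and *Timm17a* were higher, and all 5 had a higher mean. *Timm50* (chr7:28305516-28312072, minus strand) encodes the receptor that faces the intermembrane space. Its FPKM was 30.0, 29.5 and 31.6 in Mock and 33.7, 34.5 and 35.2 in Quinpirole. The lowest Quinpirole library was thus above the highest Mock library, with a log2 fold change of 0.18 (SE 0.04, adjusted p = 0.043 by limma). After the length correction the change was 0.11 (adjusted p = 0.12).

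*Timm17a* (chr1:135295213-135313778, minus strand) and its X-linked paralogue *Timm17b* encode alternative subunits next to the channel. *Timm17a* had 6.64, 7.44 and 7.17 FPKM in Mock and 8.65, 8.51 and 8.26 FPKM in Quinpirole. Its log2 fold change was 0.23 (SE 0.06, adjusted p = 0.047 by limma) and was larger, 0.30 (adjusted p = 0.043), after the length correction. *Timm17b* had 12.3, 11.1 and 11.7 FPKM in Mock and 13.7, 13.7 and 12.5 FPKM in Quinpirole, also apart, with a log2 fold change of 0.17 that did not pass (adjusted p = 0.10 by limma) and was 0.10 after the length correction (adjusted p = 0.32). *Timm17b* was the more abundant of the pair in every library.

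*Timm23*, the channel gene, had 39.2, 41.8 and 50.8 FPKM in Mock and 45.2, 48.5 and 48.9 FPKM in Quinpirole. Mock 3 was the highest of all 6 libraries, and the difference did not pass (log2 fold change 0.12, adjusted p = 0.41 by limma). Without Mock 3 the change was 0.23 and passed (adjusted p = 0.049 by limma), whereas without Mock 1 it was 0.043 (adjusted p = 0.79) and after the length correction 0.023 (adjusted p = 0.88). In words of 50 bases, 90.9% of its longest transcript also occurs in other transcripts, mainly those of *Gm10273*, so the values of this pair are uncertain. *Gm10273* had 2.22, 3.73 and 7.28 FPKM in Mock and 8.81, 8.24 and 4.82 FPKM in Quinpirole, and the sum of the 2 genes was 48.4 ± 8.70 FPKM in Mock and 54.8 ± 1.68 FPKM in Quinpirole (SD, n = 3 each). *Timm21*, which links TIM23 to the TOM complex, overlapped between the groups (log2 fold change 0.09, adjusted p = 0.32 by limma).

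The TOM complex is the common entry gate, and *Tomm6* and *Tomm22* were the members among its 9 genes that passed. *Tomm6* (chr17:47686646-47688386, minus strand), a small subunit that stabilizes the complex, had the highest mean level of the 30 genes, 78.1 FPKM. It had 71.4, 68.8 and 71.4 FPKM in Mock and 78.6, 89.5 and 88.9 FPKM in Quinpirole. The Mock libraries lay close together and below all Quinpirole libraries, with a log2 fold change of 0.27 (SE 0.06, adjusted p = 0.030 by limma). The change was 0.15 (adjusted p = 0.13) after the length correction, and 77.2% of the longest *Tomm6* transcript also occurs in other transcripts, mainly those of *Gm21981*, which overlaps it on the same strand.

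*Tomm22* (chr15:79670861-79673400, plus strand) encodes the central receptor that binds presequences on both sides of the outer membrane. Its FPKM was 47.9, 49.8 and 49.3 in Mock and 53.5, 59.2 and 54.6 in Quinpirole. The groups did not overlap, and the log2 fold change was 0.18 (SE 0.05) with an adjusted p of 0.049 by limma, just under the threshold. After the length correction it was 0.08 (adjusted p = 0.24).

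The pore gene *Tomm40* had 51.6, 50.8 and 51.5 FPKM in Mock and 53.6, 59.7 and 59.2 FPKM in Quinpirole. These groups did not overlap, but the difference did not pass (log2 fold change 0.16, adjusted p = 0.069 by limma). The receptors *Tomm20*, for presequences, and *Tomm70a*, for carrier precursors, and the small subunit *Tomm7* were likewise apart without passing, with log2 fold changes of 0.14, 0.11 and 0.12 and adjusted p of 0.096, 0.16 and 0.16 by limma. For *Tomm70a*, the longest gene of the set by exonic length (9777 bases), the change was 0.20 after the length correction (adjusted p = 0.046), whereas for *Tomm7*, with 1125 bases, it was 0.0006 (adjusted p = 0.99).

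The other 3 TOM genes overlapped between the groups. *Tomm40l*, the paralogue of the pore, had 12.1, 13.1 and 13.9 FPKM in Mock and 15.3, 11.4 and 13.2 FPKM in Quinpirole, that is, both the highest and the lowest library were Quinpirole libraries (log2 fold change 0.02, adjusted p = 0.91 by limma). *Tomm34*, which encodes a cytosolic co-chaperone and no subunit of the pore complex, had 18.5, 15.5 and 17.6 FPKM in Mock and 16.8, 16.1 and 17.1 FPKM in Quinpirole (log2 fold change -0.04, adjusted p = 0.74 by limma). *Tomm5* (chr4:45105208-45108114, minus strand), another small subunit, is described with the single libraries that stand apart.

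The SAM complex folds β-barrel proteins into the outer membrane, and its core gene *Samm50* (chr15:84192241-84217267, plus strand) was higher. *Samm50* had 48.5, 45.4 and 49.4 FPKM in Mock and 53.0, 61.2 and 56.1 FPKM in Quinpirole. Quinpirole 2 was the highest, and the means were 47.8 ± 2.12 and 56.8 ± 4.13 FPKM (SD, n = 3 each). The log2 fold change was 0.24 (SE 0.06, adjusted p = 0.046 by limma), and 0.28 after the length correction (adjusted p = 0.055). Of its metaxin partners, *Mtx2* was apart between the groups (7.28 to 8.08 FPKM in Mock, 8.24 to 9.01 FPKM in Quinpirole, adjusted p = 0.11 by limma). *Mtx1* overlapped, with 28.3, 25.8 and 21.0 FPKM in Mock and 26.7, 25.7 and 24.1 FPKM in Quinpirole (adjusted p = 0.85 by limma).

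The disulfide relay oxidizes small cysteine-rich proteins in the intermembrane space, among them the small TIM chaperones that escort hydrophobic precursors. Of these 7 genes, all had a higher mean and *Timm8a1* passed. *Timm8a1* (chrX:134537256-134541865, minus strand) is the mouse counterpart of the human gene mutated in deafness-dystonia syndrome. Its FPKM was 11.6, 9.43 and 11.8 in Mock and 13.8, 13.6 and 15.4 in Quinpirole. Mock 2 was the lowest and Quinpirole 3 the highest, and the log2 fold change of 0.36 (SE 0.09, adjusted p = 0.046 by limma) was the largest of the 8 called genes. It was 0.25 after the length correction (adjusted p = 0.14).

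Of the longest *Timm8a1* transcript, 41.0% also occurs in other transcripts, mainly those of *Gm9797*, and the low Mock 2 value coincided with a high one there. *Gm9797* had 0.101, 2.40 and 0.130 FPKM in Mock and at most 0.135 FPKM in Quinpirole. The sum of both genes was 11.7, 11.8 and 11.9 FPKM in Mock and 13.9, 13.6 and 15.5 FPKM in Quinpirole. The groups were therefore also apart on the sum, with means of 11.8 ± 0.124 and 14.3 ± 1.00 FPKM (SD, n = 3 each).

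*Timm13*, the partner of the Timm8 proteins, and *Timm10* were apart between the groups without passing (log2 fold changes 0.14 and 0.13, adjusted p = 0.098 and 0.17 by limma). Their changes after the length correction were 0.031 and -0.0037 (adjusted p = 0.72 and 0.97). *Timm8b* was the second most abundant gene of the set and overlapped, with 67.2, 60.2 and 70.8 FPKM in Mock and 67.0, 78.0 and 70.1 FPKM in Quinpirole (adjusted p = 0.33 by limma). *Timm9*, whose product pairs with that of *Timm10*, had the lowest mean of the set, 7.40 FPKM. It had 5.95, 7.24 and 8.15 FPKM in Mock and 6.86, 8.56 and 7.64 FPKM in Quinpirole, with wide overlap (adjusted p = 0.57 by limma). *Chchd4*, the oxidoreductase of the relay, overlapped as well, with 12.1 to 13.0 FPKM in Mock and 10.8 to 14.6 FPKM in Quinpirole (log2 fold change 0.01, adjusted p = 0.95 by limma).

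**Figure D3:**
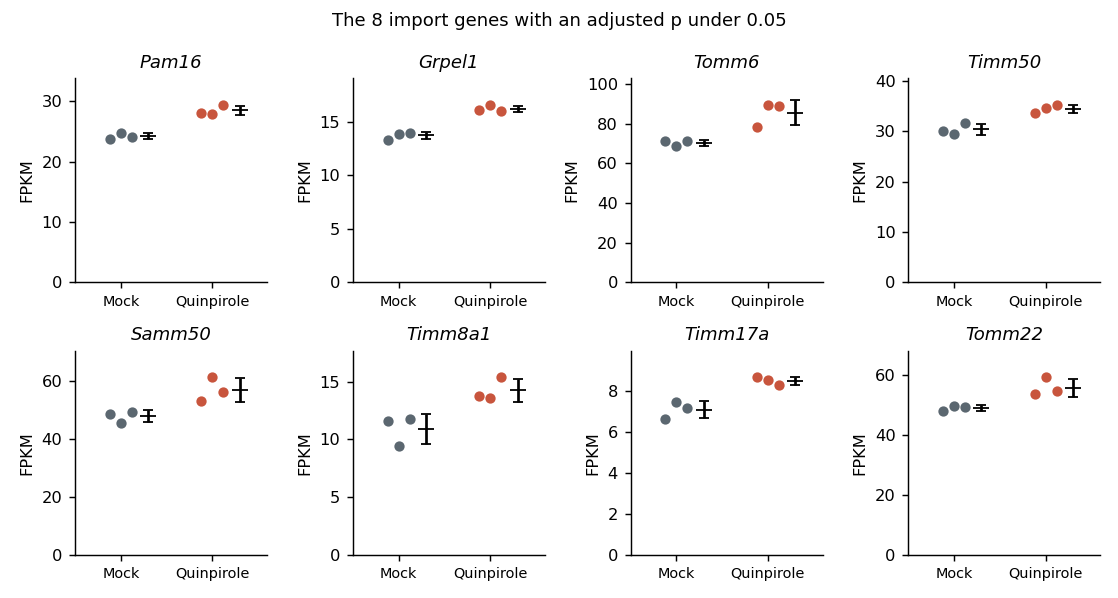
FPKM of the 8 import genes with an adjusted p under 0.05 by limma, 1 point per library, with the mean and SD of the 3 libraries of each group beside the points; the vertical axes start at 0. In each panel all Quinpirole points lie above all Mock points, as from 24.8 to 28.0 FPKM for *Pam16*.

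The carrier translocase TIM22 had 2 genes in the set. *Timm22* (chr11:76406952-76416292, plus strand), its channel gene, had the largest positive fold change of the 30 genes but did not pass. It had 7.48, 7.89 and 13.7 FPKM in Mock and 14.3, 16.1 and 16.6 FPKM in Quinpirole. Mock 3 thus sat next to the Quinpirole libraries, and the log2 fold change of 0.69 had an SE of 0.20 (adjusted p = 0.064 by limma). Without Mock 3, *Timm22* passed (log2 fold change 0.94, adjusted p = 0.014 by limma). It did not pass when any other library was left out (adjusted p = 0.11 to 0.18 by limma) or after the length correction (0.64, adjusted p = 0.096). *Timm29*, the other subunit gene, had 21.0, 20.7 and 21.1 FPKM in Mock and 20.4, 19.5 and 22.1 FPKM in Quinpirole, with overlap (log2 fold change -0.02, adjusted p = 0.83 by limma). *Timmdc1*, an assembly factor of respiratory complex I that shares the Timm name, overlapped between the groups too (13.0 to 14.5 FPKM in Mock, 13.6 to 14.8 FPKM in Quinpirole, adjusted p = 0.97 by limma).

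In 2 other genes, the fold change depended on single libraries, in its sign for *Tomm5* and in its size for *Timm10b*. *Tomm5* had 37.3, 34.6 and 38.8 FPKM in Mock and 37.7, 42.0 and 5.92 FPKM in Quinpirole. Its value in Quinpirole 3 was more than 4 times below that in the lowest other library, which held for 5 of 12255 genes in Quinpirole 3 and for 1 to 6 genes in each of the other libraries. The log2 fold change of -0.74 (SE 0.63, adjusted p = 0.45 by limma) became 0.11 without Quinpirole 3. The 5.92 FPKM correspond to an estimated 114 fragments, the fewest behind any value of the set.

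*Timm10b* (chr7:105640056-105643637, plus strand), a small TIM bound to the carrier translocase, had 18.4, 15.2 and 19.6 FPKM in Mock and 23.3, 35.4 and 19.6 FPKM in Quinpirole. Quinpirole 2 was high and Quinpirole 3 lay at the level of Mock 3, so that the log2 fold change of 0.50 (SE 0.20) did not pass (adjusted p = 0.14 by limma). Without Quinpirole 2 it was 0.26 (adjusted p = 0.24). Of its longest transcript, 19.9% also occurs in other transcripts, mainly those of *Gm45799*, which lies on the same strand. In bulk tables of 1 value per gene, the transcript forms behind these single values were not tested.

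**Figure D4:**
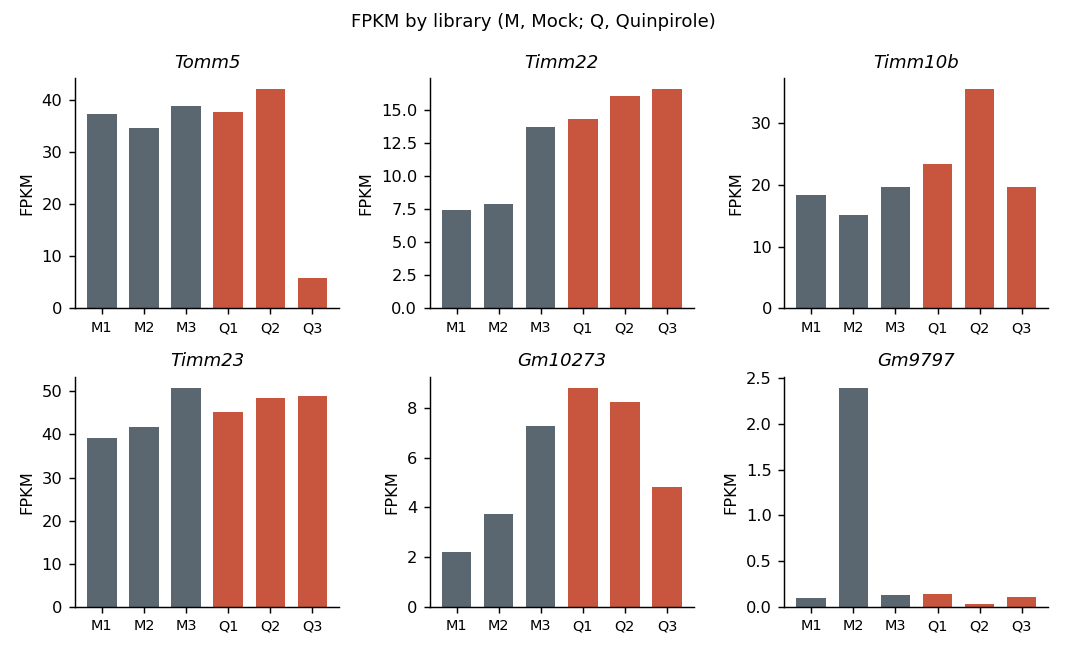
FPKM in Mock 1 to 3 (grey bars) and Quinpirole 1 to 3 (red bars) for *Tomm5*, *Timm22*, *Timm10b* and *Timm23* and for *Gm10273* and *Gm9797*, the genes that share sequence with *Timm23* and *Timm8a1*. Single libraries stand out, 5.92 FPKM for *Tomm5* in Quinpirole 3 and 2.40 FPKM for *Gm9797* in Mock 2.

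For 3 pairs of paralogues in the set, the share of one gene in the summed FPKM of the pair was compared. The share of *Timm8a1* in *Timm8a1* and *Timm8b* was 14.7%, 13.5% and 14.3% in Mock and 17.0%, 14.9% and 18.0% in Quinpirole, a difference of 2.46 percentage points. In a two-sided exact permutation test p was 0.10 (0.30 adjusted over the 3 shares), and with 3 libraries in each group it cannot be lower than 0.10. The separation of the groups depended on leaving out *Gm9797*, which shares sequence with *Timm8a1*. The sum of *Timm8a1* and *Gm9797* was 11.8 FPKM beside 60.2 FPKM for *Timm8b* in Mock 2. In Quinpirole 2 it was 13.6 FPKM beside 78.0 FPKM, a smaller share than in Mock 2, so that on this sum the groups overlapped. *Timm17a* made up 35.1%, 40.1% and 38.1% of the Timm17 pair in Mock and 38.8%, 38.3% and 39.9% in Quinpirole (difference 1.24 points, exact permutation p = 0.50), and after the length correction the difference was 3.74 points (exact permutation p = 0.10). *Tomm40l* made up 19.0%, 20.5% and 21.2% of the pore pair in Mock and 22.2%, 16.0% and 18.2% in Quinpirole (difference -1.45 points, exact permutation p = 0.60). For these last 2 pairs the groups overlapped before the correction.

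Exonic length was examined because fold changes in these libraries fell with length. Of the genes tested, the shortest of 5 groups of equal size (up to 2514 bases) had a median log2 fold change of 0.12, and the longest (7767 bases or more) one of -0.11. The import genes are mostly short, with 11 in the shortest group, 11 in the second, and 5, 1 and 2 in the following ones. In the shortest group 4 of 11 import genes were called, beside 12.8% of its genes called higher, in the second 2 of 11, beside 8.67%, and in the third 0 of 5 in limma, beside 3.64%. The medians of the import genes in the 5 groups, from short to long, were 0.13, 0.17, 0.10, 0.24 and 0.17. *Samm50* in the fourth group and *Timm17a* in the longest one were also called, in groups where 2.45% and 1.19% of genes were called higher.

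With the relation to length removed from each library, a step that would also remove a true change related to length, the median of the 30 genes was 0.08 and 23 of the means were higher. The 3 of 30 genes that then passed stand beside 2.46% of all genes called higher in that fit. With GC content corrected in addition, 0 of the 30 passed in limma, beside 1.79% of all genes called higher, and the smallest adjusted p was 0.053. At an unadjusted p under 0.05 there were 11 of the 30 import genes, beside 3080 of the 12255 genes in either direction. In each library the median deviation of the 30 genes from their own means over the 6 libraries was -0.10, -0.09 and -0.03 in Mock and 0.07, 0.12 and 0.04 in Quinpirole. After the length correction these values were -0.04, -0.08 and -0.02 in Mock and 0.04, 0.07 and 0.03 in Quinpirole. The groups were thus apart in both. Before the correction the medians over all genes tested were also apart, though closer together. They were -0.012, -0.0027 and -0.0003 in Mock and 0.0049, 0.0092 and 0.0063 in Quinpirole.

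**Figure D5:**
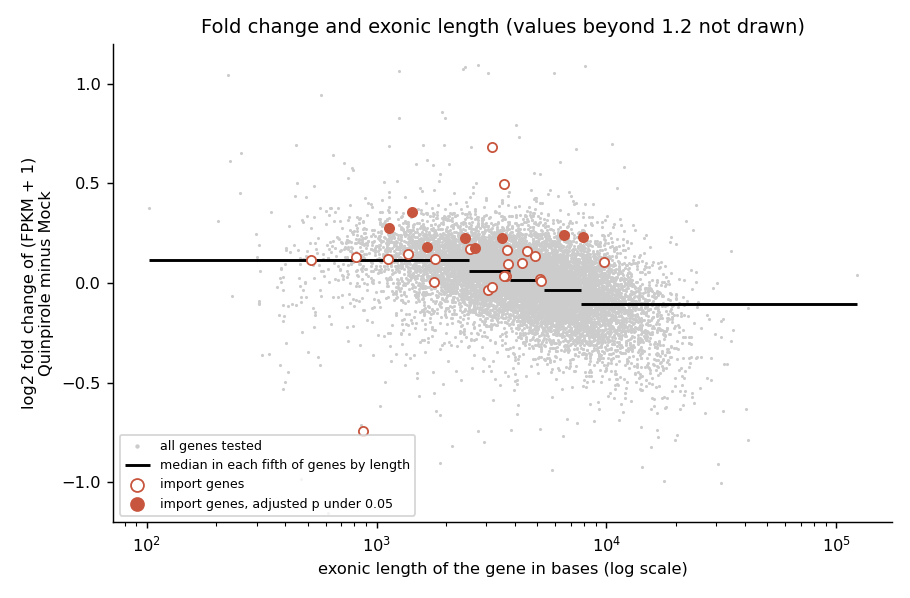
Log2 fold change of FPKM + 1 (Quinpirole minus Mock) against exonic length in bases (log scale) for all genes tested (grey) and the import genes (red circles, filled when the adjusted p was under 0.05); black bars are the medians of 5 groups of genes by length. The bars go from 0.12 to -0.11 with rising length, and most import genes lie at the short end, with 11 genes in each of the 2 shortest groups.

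Other genes of the import route were taken as 5 lists with 55 genes, all of which were tested. Of these, 6 were higher and 1 was lower after Quinpirole, 50 had a higher mean, and the median log2 fold change was 0.11. Over all genes tested 5.74% were higher, 5.18% lower and 53.8% had a higher mean, with a median of 0.02. The lists had been compiled with earlier results of these data known.

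Among the 14 other motor and insertase genes, *Mtch1*, which encodes the paralogue of the outer membrane insertase MTCH2, was higher. It had 161, 160 and 162 FPKM in Mock and 177, 185 and 185 FPKM in Quinpirole (log2 fold change 0.18, adjusted p = 0.027 by limma). *Mtx3*, the remaining metaxin gene, was the lower one, with 4.13, 4.20 and 3.84 FPKM in Mock and 2.92, 3.18 and 3.29 FPKM in Quinpirole (log2 fold change -0.29, adjusted p = 0.039 by limma). *Mtx1* and *Mtx2*, the other metaxin genes, did not pass.

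Of the 5 matrix chaperone genes, *Hspd1* and *Hspe1*, which encode the Hsp60 chaperonin and its lid, were higher. *Hspd1* had 56.7, 58.4 and 59.4 FPKM in Mock and 66.3, 69.7 and 66.7 FPKM in Quinpirole (log2 fold change 0.21, adjusted p = 0.025 by limma). *Hspe1* had 78.8, 74.7 and 73.8 FPKM in Mock and 86.5, 93.9 and 83.6 FPKM in Quinpirole (log2 fold change 0.21, adjusted p = 0.045 by limma). Both genes were apart between the groups.

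Among the 10 presequence and import peptidases, *Pitrm1*, whose product degrades cleaved presequences, was higher, from 17.9 to 18.1 FPKM in Mock to 19.5 to 20.9 FPKM in Quinpirole (log2 fold change 0.17, adjusted p = 0.049 by limma). Among the 16 twin CX9C substrates of CHCHD4, *Ndufa8*, a subunit of respiratory complex I, and *Chchd1*, a protein of the mitochondrial ribosome, were higher. *Ndufa8* had 83.1, 81.9 and 89.9 FPKM in Mock and 99.0, 103 and 95.3 FPKM in Quinpirole (log2 fold change 0.22, adjusted p = 0.038 by limma), and *Chchd1* had 23.3 to 27.9 FPKM in Mock and 31.2 to 36.1 FPKM in Quinpirole (log2 fold change 0.34, adjusted p = 0.042 by limma). Of the 10 cytosolic chaperone genes 0 passed in limma, with 3 at an unadjusted p under 0.05. After the length correction *Mtch1* and *Hspd1*, both higher, were the 2 of the 55 genes that passed (adjusted p = 0.032 and 0.046 by limma). Of all genes tested, 2.46% were called higher in that fit, so this count is near the share over all genes.

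Several import genes share exonic sequence with a gene on the opposite strand, and no step that keeps the strand is named for these libraries. *Pam16* overlaps *Glis2* over 455 bases, and *Glis2* had 22.1, 20.6 and 22.9 FPKM in Mock and 19.1, 18.8 and 19.8 FPKM in Quinpirole, the opposite direction (adjusted p = 0.064 by limma). *Grpel1* overlaps *Tada2b* over 411 bases, which had 8.02 to 9.13 FPKM in Mock and 7.41 to 8.22 FPKM in Quinpirole. *Tomm40l* overlaps *Nr1i3* over 3304 bases, with at most 0.396 FPKM for *Nr1i3* in any library.

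The depth of the libraries was estimated at 22100000 to 27800000 fragments, the lowest in Quinpirole 3, and the members' values rest on an estimated 114 to 10269 fragments. Defining astrocyte markers were abundant, with 482 to 560 FPKM for *Gfap* and 165 to 182 FPKM for *Aldh1l1*, although *Slc1a2* had 5.15 to 8.55 FPKM and *Gjb6* at most 0.281 FPKM. Of 9 astrocyte markers tested, 2 were called lower after Quinpirole (3 had an unadjusted p under 0.05), beside 5.18% of all genes called lower. The 2 were *Slc1a2* (log2 fold change -0.42, adjusted p = 0.030 by limma) and *Atp1b2*, which encodes ACSA-2 (-0.19, adjusted p = 0.038). *Slc1a2* was -0.26 after the length correction (adjusted p = 0.059), and *Atp1b2* still passed (adjusted p = 0.043). The summed astrocyte list ranged from 1435 to 1599 FPKM in Mock and from 1436 to 1463 FPKM in Quinpirole. The 8 microglia markers summed to 530 to 567 FPKM in Mock and 552 to 616 FPKM in Quinpirole, and 0 passed in limma (5 at an unadjusted p under 0.05). *C1qa* (198 to 252 FPKM) and *C1qb* (185 to 220 FPKM) made up most of this sum. In 2 of the 8, *Aif1* and *C1qa*, every Quinpirole library lay above every Mock library, beside 20% of all genes. In 3, *Csf1r*, *Itgam* and *Cx3cr1*, every Quinpirole library lay below, beside 16.9%. Mural markers, mostly *Acta2*, summed to 2547 to 2716 and 2732 to 2902 FPKM, with *Pdgfrb* lower (adjusted p = 0.023 by limma). *Rgs5*, *Kcnj8* and *Myh11* were at most 0.420, 0.149 and 0.810 FPKM. The oligodendrocyte list had 159 to 178 and 164 to 175 FPKM, the neuron list 43.4 to 45.1 and 42.8 to 48.5 FPKM, the endothelial list 53.1 to 54.3 and 51.4 to 53.8 FPKM, and the ependymal list 136 to 149 and 136 to 143 FPKM, with 0 called in limma in each (2 neuron markers and 1 endothelial marker at an unadjusted p under 0.05). The neuronal markers *Rbfox3* and *Snap25* were at or near 0 in all libraries, at most 0.0773 FPKM, and *Mog*, of oligodendrocytes, was at most 0.0639 FPKM, whereas *Map2* (22.3 to 25.8 FPKM) and *Tubb3* (16.6 to 22.3 FPKM) made up the neuron sum and *Cnp* (151 to 171 FPKM) most of the oligodendrocyte sum. *Slco1a4* (44.4 to 47.6 FPKM) made up most of the endothelial sum, with *Pecam1*, *Tek* and *Cdh5* at most 0.0596, 0.117 and 0.908 FPKM. *Foxj1* (118 to 130 FPKM) made up most of the ependymal sum. The part of these markers in the differences of the import genes was not tested.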

How the data were processed

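Poly(A) RNA of astrocytes isolated from mouse brain was sequenced in 6 libraries, 3 Mock and 3 Quinpirole, grouped by the treatment in the sample labels. The authors removed adaptors and low-quality reads, mapped paired-end reads with TopHat2 to GRCm38 (per the submitters' processing notes, version not given) and kept reads with at most 1 mismatch. The deposited values are FPKM, 1 per gene and library; the program and annotation behind them are not given in the sources used here. Depth was read from the lowest FPKM values, which rise by 1 fragment at a time. At the depths chosen, 56.0% to 63.3% of these values lay within 0.1 of a whole fragment. Evenly spread values would give 20% at a depth fixed beforehand. The depths were chosen for closeness to whole fragments on these same values, so 20% is not the chance level of these shares.

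Genes were named, placed and measured with GENCODE M21 on GRCm38 (17090 of 17193 identifiers had a symbol). Log2(FPKM + 1) was compared for 12255 genes (filter: mean FPKM at least 1) with limma 3.58.1 in R 4.3.3 (moderated by eBayes with a trend; two-sided p adjusted after Benjamini and Hochberg over all genes, threshold 0.05), after the code had been tested on simulated data. The added 1 understates the changes of weakly expressed genes. For the length correction, a loess curve (span 0.3) of each library's deviations from the gene means against log2 exonic length was subtracted. Shared sequence was counted in words of 50 bases, and promoters came from RefSeq. Tables, permutation tests and figures were made in Python 3.11.15 with scipy 1.17.1, pandas 2.3.3, matplotlib 3.10.9 and numpy 2.4.6.

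The members and gene lists were chosen with earlier results of these data known. Values in every library are given for each import gene past the threshold, the 3 highest and 3 lowest fold changes, the highest and lowest mean FPKM and the genes of the paralogue pairs. From the other lists the genes past the threshold are named, and other genes with values were chosen after these had been seen. The correction for length and GC content together was added after the data had been seen.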

Additional observations from a re-analysis of the deposited data

How the results depend on the processing

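Under 17 alternatives, 510 values of import genes were computed, of which 387 kept their direction and side of the threshold, 94 kept their direction but no longer passed, 3 newly passed and 26 changed sign. All 94 values that no longer passed were among the 136 values of the 8 called genes. None of these 136 values changed sign. Changing the filter or the eBayes settings, or adding the replicate number as a block, leaves the fold change itself as it was. Its sign could therefore not change under these alternatives. The genes called in all, 1339, became 633 without a filter, 783 with quantile normalization, 714 without trend, 548 with the length correction, 400 with length and GC correction, and 3 to 1215 when single libraries were left out. The 8 import genes became 2 without a filter (*Grpel1* and *Pam16*), 4 with median ratio scaling, 3 with quantile normalization, 2 without trend, 3 with the length correction, 0 with length and GC correction, and 0 to 7 when single libraries were left out. The cause of these changes was not tested. The median of the 30 fold changes became 0.083 with the length correction, with or without the block, and 0.070 with length and GC correction. With the replicate number as a block, limma called 2 genes and 0 import genes (3308 and 13 at an unadjusted p under 0.05), and with block and length correction 0 genes and 0 import genes (2720 and 10). The numbers share no stated animal or batch, and same-numbered libraries did not deviate together (r = 0.026, -0.066 and -0.103). Sign changes with the length correction, with and without block, were -0.0037 for *Timm10*, -0.022 for *Timm8b*, -0.0029 for *Mtx1* and -0.092 for *Timmdc1*. With length and GC correction they were -0.033 for *Tomm7*, -0.023 for *Timm8b*, -0.0007 for *Chchd4* and -0.084 for *Timmdc1*, and with median ratio scaling -0.0001 for *Chchd4* and -0.0079 for *Timmdc1*. When single libraries were left out, the fold change ranged from -1.21 to 0.11 for *Tomm5*, -0.0041 to 0.19 for *Timm9*, -0.11 to 0.015 for *Tomm34*, -0.065 to 0.020 for *Timm29*, -0.083 to 0.12 for *Mtx1*, -0.079 to 0.12 for *Tomm40l*, -0.078 to 0.13 for *Chchd4* and -0.045 to 0.030 for *Timmdc1*, and the difference in the share of *Timm17a* from -0.11 to 2.43 percentage points. None of the tables gives counts, so counting error was not modelled.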
